A study of Homo sapiens with 16 samples.

Results

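Clone G10 was compared with clone A7 over the 4 arrays of each, which are 8 of the 16 arrays of the series, and over all 33297 transcript clusters of the value table. Both are lines of A375, a human amelanotic melanoma cell line, that stably carry human catalase cDNA in the pcDNA3 vector and were kept in geneticin. Each grew out by clonal dilution, so each is 1 clone, and what differs between them cannot be told apart from what differed between their founding cells. The 4 arrays of untransfected A375 cells and the 4 of PCDNA3 cells, which carry the vector without an insert, gave the control levels printed beside the clones and shared the estimate of the spread. The study describes the arrays of a group as biological replicates, but the labels do not say which cultures they came from, so the p values measure the spread between these samples.

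Catalase breaks down hydrogen peroxide in the peroxisome. Pigment in melanocytic cells is made in the melanosome by tyrosinase and its related proteins from genes driven by MITF, while the same cells can lose pigment and take up an adhesive and invasive program. MHC class II molecules present peptides to T helper cells, and melanoma cells can carry them. The clustered protocadherins and the KRAB zinc finger repressors lie in long arrays of neighbouring genes. Values are RMA log2 intensities, on which a difference of 1 is a fold of 2, and they compare 1 gene between arrays but not 1 gene with another. The 95th percentile of the means of 360 olfactory receptor clusters, 5.18, served as the level of an unexpressed gene. Where 1 clone lay below that level, a difference is given as at least the distance from it.

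Arrays of A7 correlated with each other at r of 0.9875 to 0.9949 over all clusters, arrays of G10 at 0.9844 to 0.9941, and arrays of different clones at 0.9772 to 0.9836. In both clones replicates 1 and 2 were alike and replicates 3 and 4 were alike. The 2 arrays of such a pair correlated at 0.9940 and 0.9949 in A7 and at 0.9941 and 0.9918 in G10, whereas arrays of different pairs correlated at 0.9875 to 0.9926 in A7 and at 0.9844 to 0.9871 in G10. The labels do not say what the arrays of a pair share. The fit took the 4 arrays of a clone as independent, so standard errors and p values are too small if the arrays of a pair share a source. Where the counts of a gene list moved by over 1.5 times and by at least 2 genes in a pair alone, both pairs are given. Of 12 measured markers of melanocytes and melanoma none lay below the olfactory receptor level in both clones. Their summed linear level ran from 12422 to 13413 in A7 and from 13555 to 15469 in G10. VIM, the highest of them, had means of 12.07 in A7 and 12.52 in G10. Of the 12, 8 had a lower and 4 a higher mean in G10, and 4 were called lower and 2 higher. Among 13 leukocyte markers 7 lay below the olfactory receptor level in all 4 groups, PTPRC, CD3E and MS4A1 among them. The same held for 1 of 9 fibroblast, 3 of 8 epithelial and 5 of 8 endothelial markers. The summed levels of these ran from 913 to 1019 in A7 and 449 to 898 in G10 for fibroblast, from 1598 to 1952 and 1292 to 2497 for epithelial, and from 568 to 666 and 514 to 860 for endothelial markers. In a culture of 1 clone, fewer cells with a transcript and less of it per cell cannot be told apart.

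CAT, the transfected gene, was lower in G10 than in A7. It read 9.02, 8.92, 9.12 and 9.02 on the A7 arrays and 8.51, 8.55, 7.74 and 8.27 on the G10 arrays, and 8.73 in A375 cells and 8.56 in PCDNA3 cells on average. Every G10 array lay below every A7 array. The difference was -0.75 log2 units (standard error 0.15, adjusted p = 0.00221). Between replicates 1 and 2 of the clones alone it was -0.44 with an adjusted p of 0.0529, and between replicates 3 and 4 alone it was -1.07 with an adjusted p of 0.00266. Where the probes of this cluster lie relative to the transfected cDNA is not given in the sources used here, so the value is the CAT signal of the array and no check of the transgene.

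The clones differed widely, mostly by modest amounts. With 1 cluster per gene, 1915 of 18417 genes (10.4%) were higher and 1897 (10.3%) lower in G10 at an adjusted p under 0.05 in limma. Of these genes 84.0% differed by less than 1 log2 unit, and the median size was 0.56. Over all genes the median difference was -0.01. Every G10 array lay above every A7 array for 2073 genes (11.3%) and below for 2100 (11.4%). Over all clusters the shares were 7.83% higher and 7.38% lower. At a difference of at least 2 log2 units and an adjusted p of 1e-04 or less, 0.15% of clusters were higher and 0.258% lower, or 0.408% in either direction, and 118 genes differed by at least 2 and 30 by at least 3 at an adjusted p under 0.05. The control arrays show on which side the clones moved apart. Of the 31 genes past the stricter limits with every G10 array higher, the control arrays lay between the clone means for 18, and A7 lay within the control range for 10. Of the 80 such genes with every G10 array lower, the controls lay between the clones for 37, A7 alone lay within their range for 20, and G10 alone for 14.

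**Figure D1:**
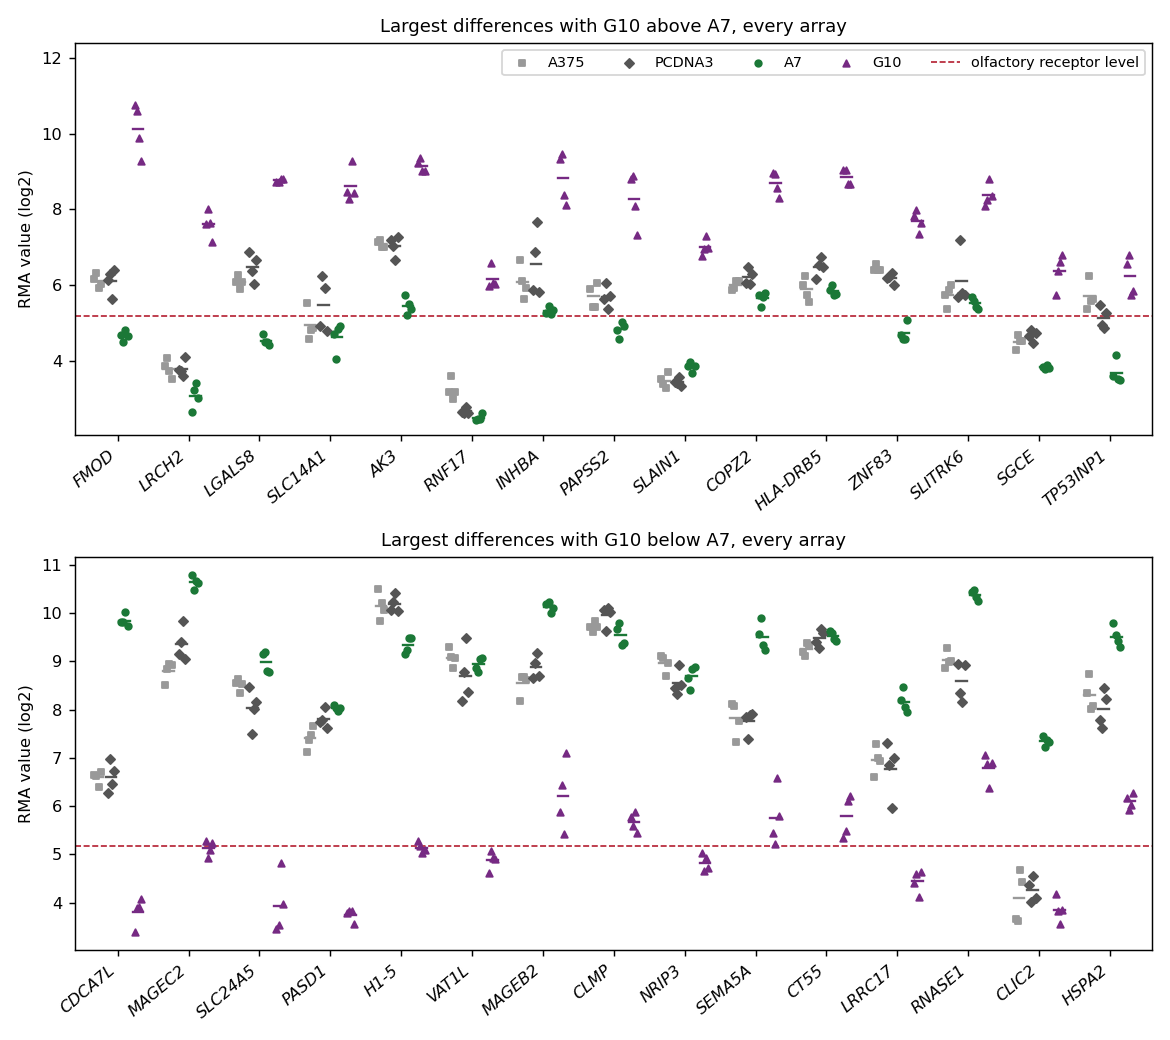
RMA log2 values on every array of the 15 genes with the largest measured differences in each direction, with group means as bars and the olfactory receptor level as a dashed line. All 4 G10 arrays stand apart from all 4 A7 arrays for each gene, and for FMOD, LGALS8, AK3 and CDCA7L the control arrays sit between the clones.

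Among the genes highest in G10 relative to A7 were a matrix proteoglycan, a growth factor, a urea transporter and several genes that A7 did not measurably express. FMOD, which encodes the collagen-binding proteoglycan fibromodulin, read 4.67, 4.49, 4.80 and 4.66 in A7 and 10.76, 10.58, 9.89 and 9.27 in G10. LRCH2, a protein with leucine-rich repeats, read 2.66, 3.23, 3.40 and 3.02 in A7 and 7.62, 8.01, 7.64 and 7.15 in G10, and was higher in G10 by at least 2.43 log2 units (measured difference 4.53, standard error 0.19, adjusted p = 2.38e-10). The G10 arrays of both genes lay far above those of A7, which were all below the olfactory receptor level. SLC14A1, a urea transporter, read 4.70, 4.05, 4.83 and 4.91 in A7 and 8.47, 8.27, 9.28 and 8.44 in G10, and was higher in G10 by at least 3.44 log2 units (measured difference 3.99, standard error 0.32, adjusted p = 4.2e-07). RNF17, a germ cell protein, read 2.44, 2.47, 2.46 and 2.61 in A7 and 5.96, 6.57, 6.06 and 6.01 in G10, and was higher in G10 by at least 0.97 log2 units (measured difference 3.66, standard error 0.14, adjusted p = 6.33e-11). Neither gene had overlapping arrays, and control means were 4.94 in A375 cells and 5.46 in PCDNA3 cells for SLC14A1. INHBA, whose product forms activin A, read 5.27, 5.46, 5.22 and 5.35 in A7 and 9.32, 9.46, 8.37 and 8.12 in G10, and was higher in G10, with a difference of 3.49 (standard error 0.38, adjusted p = 9.94e-06). In G10 its first pair of arrays was higher than its second, and both lay above A7. PAPSS2, which makes the sulfate donor for proteoglycans, read 4.80, 4.57, 5.03 and 4.92 in A7 and 8.80, 8.87, 8.09 and 7.32 in G10, and was higher in G10 by at least 3.09 log2 units (measured difference 3.44, standard error 0.28, adjusted p = 3.89e-07). The same order of pairs appeared for PAPSS2 in G10.

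SLAIN1, a microtubule end protein, was higher in G10 by at least 1.82 log2 units (measured difference 3.15, standard error 0.12, adjusted p = 6.33e-11), with means of 3.84 ± 0.13 in A7 and 6.99 ± 0.22 in G10 (SD, n = 4). COPZ2, a coat protein of Golgi vesicles, was higher in G10, with a difference of 3.03 (standard error 0.15, adjusted p = 8.65e-10), with means of 5.66 ± 0.16 in A7 and 8.69 ± 0.31 in G10 (SD, n = 4). SGCE, a sarcoglycan of the cell membrane, was higher in G10 by at least 1.20 log2 units (measured difference 2.55, standard error 0.17, adjusted p = 4.51e-08). For these genes the G10 arrays lay above all control arrays. TP53INP1, a stress protein induced by p53, read 3.60, 4.15, 3.50 and 3.49 in A7 and 6.55, 6.80, 5.73 and 5.83 in G10, and was higher in G10 by at least 1.05 log2 units (measured difference 2.54, standard error 0.25, adjusted p = 3.11e-06). Its control means were 5.70 in A375 cells and 5.13 in PCDNA3 cells, so the controls were nearer to G10 than to A7. LGALS8, a galectin, and AK3, a mitochondrial adenylate kinase, had control means between the clones, at 6.08 in A375 cells and 6.48 in PCDNA3 cells for LGALS8 and 7.08 in A375 cells and 7.04 in PCDNA3 cells for AK3. SLITRK6, HLA-DRB5 and ZNF83 complete the 15 and are described with their groups.

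The largest measured differences in the other direction included cancer-testis antigens, a melanosome transporter, a linker histone and adhesion proteins. CDCA7L, which encodes a MYC-binding regulator, read 9.81, 9.81, 10.02 and 9.72 in A7 and 3.39, 3.88, 3.91 and 4.07 in G10. PASD1, a cancer-testis antigen, read 8.08, 8.03, 7.98 and 8.02 in A7 and 3.79, 3.83, 3.83 and 3.55 in G10, and was lower in G10 by at least 2.85 log2 units (measured difference -4.28, standard error 0.12, adjusted p = 2.28e-12). The G10 arrays of both lay below the olfactory receptor level and none overlapped with A7. H1-5, a linker histone, read 9.15, 9.24, 9.48 and 9.49 in A7 and 5.28, 5.17, 5.03 and 5.08 in G10, and was lower in G10 by at least 4.14 log2 units (measured difference -4.20, standard error 0.13, adjusted p = 1.08e-11). VAT1L read 8.87, 8.78, 9.04 and 9.06 in A7 and 4.61, 5.07, 4.93 and 4.91 in G10, and was lower in G10 by at least 3.76 log2 units (measured difference -4.05, standard error 0.21, adjusted p = 1.9e-09). Control means of H1-5 were 10.15 in A375 cells and 10.19 in PCDNA3 cells, above both clones, and those of VAT1L were 9.08 in A375 cells and 8.70 in PCDNA3 cells, close to A7. CLMP, an adhesion molecule of tight junctions, read 9.68, 9.79, 9.34 and 9.38 in A7 and 5.77, 5.59, 5.88 and 5.44 in G10, and was lower in G10, with a difference of -3.88 (standard error 0.13, adjusted p = 2.16e-11). NRIP3 read 8.66, 8.40, 8.83 and 8.87 in A7 and 5.02, 4.66, 4.92 and 4.71 in G10, and was lower in G10 by at least 3.51 log2 units (measured difference -3.86, standard error 0.14, adjusted p = 6.33e-11). A7 lay nearer to the controls for both, with control means of 9.72 in A375 cells and 9.96 in PCDNA3 cells for CLMP.

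RNASE1, a secreted ribonuclease, had means of 10.37 ± 0.10 in A7 and 6.80 ± 0.30 in G10 (SD, n = 4) and was lower in G10, with a difference of -3.57 (standard error 0.18, adjusted p = 1.28e-09). HSPA2, a heat shock protein of germ cells, had means of 9.51 ± 0.21 in A7 and 6.10 ± 0.16 in G10 (SD, n = 4) and was lower in G10, with a difference of -3.41 (standard error 0.19, adjusted p = 3.42e-09). LRRC17, a secreted protein with leucine-rich repeats, was lower in G10 by at least 2.99 log2 units (measured difference -3.73, standard error 0.23, adjusted p = 1.7e-08). For all of these the control means lay between the clones, at 8.30 in A375 cells and 8.01 in PCDNA3 cells for HSPA2. CLIC2, an intracellular chloride channel protein, was lower in G10 by at least 2.17 log2 units (measured difference -3.49, standard error 0.21, adjusted p = 1.08e-08), and its control means of 4.10 in A375 cells and 4.25 in PCDNA3 cells were as low as in G10. CT55, a cancer-testis antigen, had means of 9.52 ± 0.10 in A7 and 5.79 ± 0.43 in G10 (SD, n = 4) and was lower in G10, with a difference of -3.74 (standard error 0.16, adjusted p = 3.37e-10), and its second cluster had a difference of -2.89 (adjusted p = 1.67e-08).

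Most class II HLA genes were higher in G10. Of 9 class II HLA genes with a cluster of their own, 8 were higher and none was lower, with a median difference of 1.61. Over all genes 10.4% were higher and 10.3% lower, and on chromosome 6, where these genes lie, 19.2% and 5.83% were. The part of position in this result was not tested. The promoters of class II genes hold a Y box, the letters ATTGG or their complement CCAAT, to which NF-Y binds. Among RefSeq promoter windows of GRCh38.p14, cut to the 250 bases before the start, 8 of 10 windows of these 9 genes held the letters, against 32% of all 35116 windows. The letters were also in both windows of listed genes that were lower, CTSL and IFI30, and in 7 of 11 windows of listed genes that were higher. Both windows of HLA-DPA1 lacked them, and a match of these letters is no proof of a site. The 3 windows that follow belong to class II genes that were higher in G10, are written 5′ to 3′ on the strand of the gene and show the matches in capitals. The match begins 22 bases before the start in HLA-DMB, 75 and 99 bases before it in HLA-DPB1, and 90 bases before it in HLA-DRB5.
HLA-DPB1 (chr6:33075740-33075989, + strand): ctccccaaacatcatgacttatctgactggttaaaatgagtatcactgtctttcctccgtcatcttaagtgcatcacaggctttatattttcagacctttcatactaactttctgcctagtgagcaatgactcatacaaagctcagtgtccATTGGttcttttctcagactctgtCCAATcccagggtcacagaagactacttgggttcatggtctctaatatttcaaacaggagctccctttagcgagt
HLA-DMB (chr6:32941029-32941278, - strand): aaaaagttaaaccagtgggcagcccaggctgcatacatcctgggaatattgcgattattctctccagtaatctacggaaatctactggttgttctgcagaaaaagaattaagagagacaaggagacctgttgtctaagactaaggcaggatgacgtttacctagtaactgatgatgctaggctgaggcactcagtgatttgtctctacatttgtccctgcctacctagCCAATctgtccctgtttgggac
HLA-DRB5 (chr6:32530288-32530537, - strand): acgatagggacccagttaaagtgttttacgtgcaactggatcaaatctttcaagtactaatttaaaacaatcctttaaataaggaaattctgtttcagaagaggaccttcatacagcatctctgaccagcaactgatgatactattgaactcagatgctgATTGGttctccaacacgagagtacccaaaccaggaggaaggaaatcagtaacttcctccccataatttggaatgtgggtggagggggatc

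HLA-DPA1, the alpha chain of HLA-DP, read 10.59, 10.63, 10.05 and 10.05 in A7 and 12.39, 12.44, 12.58 and 12.34 in G10, and was higher in G10, with a difference of 2.11 (standard error 0.14, adjusted p = 3.45e-08). HLA-DPB1, the beta chain, read 8.96, 8.75, 8.85 and 8.82 in A7 and 10.87, 10.91, 11.06 and 10.97 in G10, and was higher in G10, with a difference of 2.11 (standard error 0.09, adjusted p = 4.56e-10). All G10 arrays of both chains lay above all other arrays of the series, and the 3 clusters of each gene gave differences of 2.03 to 2.15. HLA-DRB5, a DR beta chain, read 5.86, 5.99, 5.75 and 5.77 in A7 and 9.05, 9.04, 8.67 and 8.66 in G10, and was higher in G10, with a difference of 3.01 (standard error 0.15, adjusted p = 1.53e-09). HLA-DRB5 is nearly identical in sequence to other DR beta genes, which its probes may also read. The peptide exchange factors were higher too. HLA-DMB had means of 8.29 ± 0.17 in A7 and 9.90 ± 0.15 in G10 (SD, n = 4) and was higher in G10, with a difference of 1.61 (standard error 0.11, adjusted p = 3.3e-08), and HLA-DMA was higher in G10, with a difference of 1.14 (standard error 0.12, adjusted p = 1.1e-05). Their modulators HLA-DOA and HLA-DOB were higher in G10, with a difference of 1.69 (standard error 0.15, adjusted p = 9.16e-07) for HLA-DOA and higher in G10 by at least 0.33 log2 units (measured difference 1.16, standard error 0.16, adjusted p = 8.56e-05) for HLA-DOB. HLA-DQA1 was higher in G10 by at least 0.92 log2 units (measured difference 1.02, standard error 0.14, adjusted p = 0.000115), whereas HLA-DQB1 lay below the olfactory receptor level in both clones. A further 11 clusters that carry several symbols, a class II HLA symbol among them, passed the stricter limits with differences of 2.41 to 3.70 and cannot be assigned to 1 gene.

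CIITA, the transactivator of class II genes, read 5.88, 5.78, 5.74 and 5.89 in A7 and 6.74, 6.27, 6.56 and 6.61 in G10, and was higher in G10, with a difference of 0.72 (standard error 0.10, adjusted p = 0.000113). NFYA, a subunit of NF-Y, was higher in G10, with a difference of 0.80 (standard error 0.10, adjusted p = 3.91e-05), and RFXAP, a subunit of the RFX complex, was higher in G10, with a difference of 0.59 (standard error 0.11, adjusted p = 0.00122). No G10 array of these regulators overlapped with A7. The other subunits did not pass the test, with differences of 0.11 for RFX5 (adjusted p = 0.618), 0.14 for RFXANK (adjusted p = 0.575), 0.29 for NFYB (adjusted p = 0.0825) and -0.24 for NFYC (adjusted p = 0.154). Endosomal enzymes of the pathway were lower. CTSS, cathepsin S, which trims the invariant chain, had means of 6.84 ± 0.22 in A7 and 5.67 ± 0.21 in G10 (SD, n = 4) and was lower in G10, with a difference of -1.17 (standard error 0.17, adjusted p = 0.000126). CTSL was lower in G10, with a difference of -0.85 (standard error 0.10, adjusted p = 2.48e-05), LGMN lower in G10, with a difference of -0.67 (standard error 0.18, adjusted p = 0.0167) and IFI30 lower in G10, with a difference of -0.50 (standard error 0.11, adjusted p = 0.00657). Without G10 replicate 3 the adjusted p of LGMN was 0.0502. In the whole class II list 11 of 21 measured genes were higher and 4 lower, against 10.4% and 10.3% of all genes, and replicates 1 and 2 alone gave 12 and 5, replicates 3 and 4 alone 11 and 4. Summed levels of the 13 leukocyte markers ran from 1186 to 1396 in A7 and from 1474 to 2193 in G10 on the linear scale. Of the 13, 9 had a lower and 4 a higher mean in G10, with a median difference of -0.05, and CD68 had by far the highest means. PTPRC, the pan-leukocyte marker, lay below the olfactory receptor level in both clones, at means of 3.14 and 2.78. CD68, a lysosomal marker of macrophages, was called higher in G10, at means of 9.88 and 10.55 (adjusted p = 0.0151), a call lost without G10 replicate 1 or 2 at adjusted p of 0.0521 and 0.0510. LYZ, lysozyme, was lower (adjusted p = 0.000935) with means of 5.09 and 3.73 that both lay below the olfactory receptor level. The part of these markers in the class II result was not tested.

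MHC class I and interferon-stimulated genes differed in both directions. In the class I list 4 of 16 measured genes (25%) were higher and 1 (6.25%) lower in G10, with a median difference of -0.05. Over all genes the shares were 10.4% and 10.3%. B2M, the light chain of class I molecules, had means of 11.34 ± 0.06 in A7 and 10.50 ± 0.22 in G10 (SD, n = 4) and was lower in G10, with a difference of -0.84 (standard error 0.12, adjusted p = 0.000123). MICA, a stress ligand of natural killer cells, was higher in G10, with a difference of 0.51 (standard error 0.12, adjusted p = 0.00668). In the interferon-stimulated list 3 of 35 measured genes were higher and 4 lower in G10, with a median difference of -0.16. OAS1, a sensor of viral RNA, was lower in G10, with a difference of -1.12 (standard error 0.26, adjusted p = 0.0071), and IFITM2, an antiviral membrane protein, was higher in G10, with a difference of 1.02 (standard error 0.18, adjusted p = 0.000826). Shares in the interferon-stimulated list were near those of all genes.

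**Figure D2:**
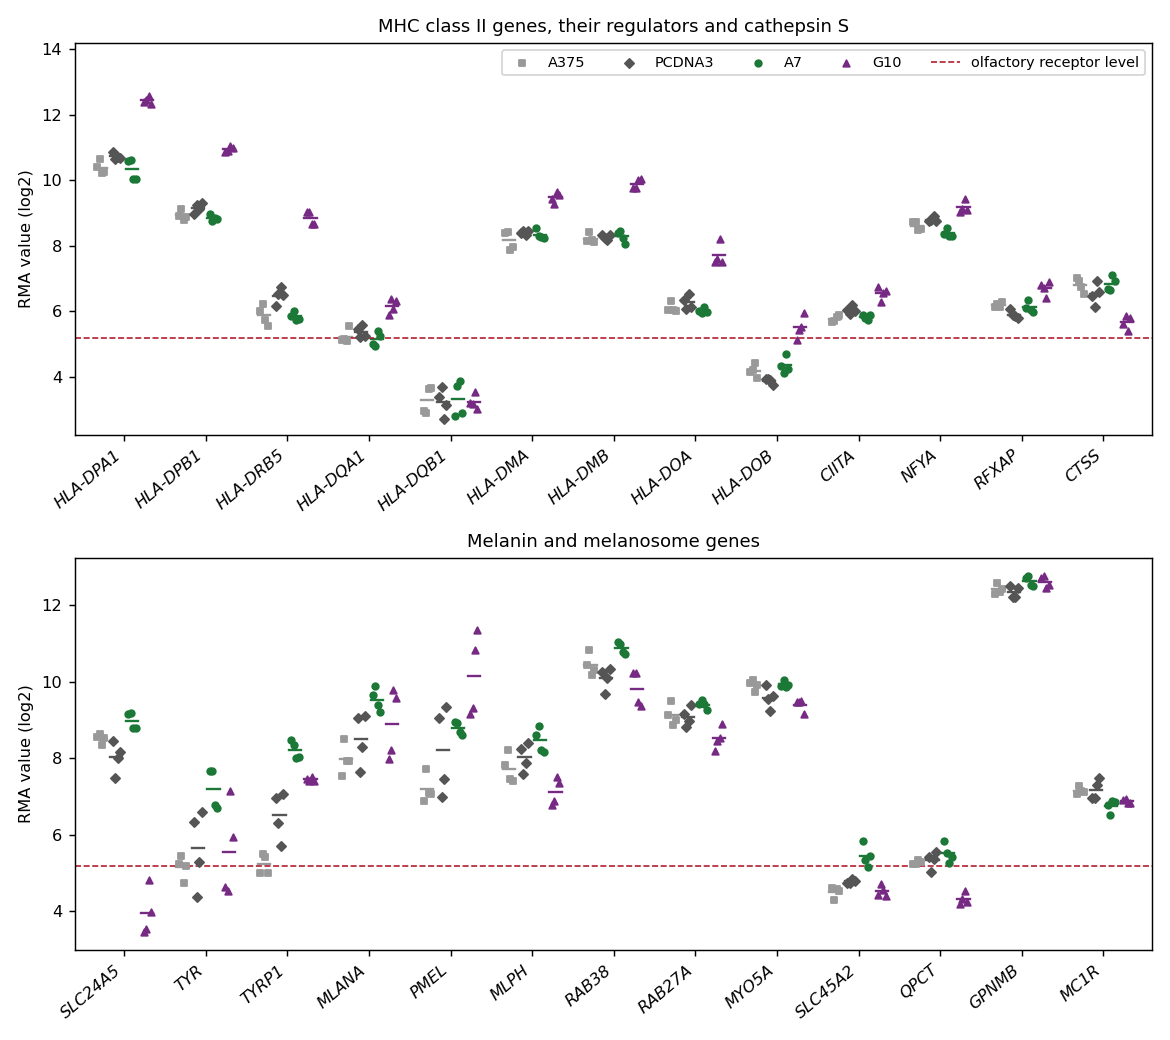
RMA log2 values on every array of class II genes with their regulators (top) and of melanin genes (bottom), with group means as bars and the olfactory receptor level as a dashed line. G10 arrays stand above all others for HLA-DPA1, HLA-DPB1 and HLA-DRB5, and the G10 arrays of TYR, MLANA and PMEL separate into pairs.

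Among genes of melanin synthesis and melanosome transport, the differences that passed the test were all lower in G10. Of 27 measured genes none was higher and 10 were lower, against 10.4% and 10.3% of all genes, and the median difference was -0.26. Of the lower genes TYR and RAB38 lie on chromosome 11 and SLC24A5, RAB27A and MYO5A on chromosome 15. On these chromosomes 25.6% and 20.8% of measured genes were lower. HPS5 on chromosome 11 and OCA2, TRPM1 and ATP10A on chromosome 15 were not called. The part of position in this result was not tested. MITF acts on the M box of pigment genes, whose core reads CATGTG or, on the other strand, CACATG. The core was present in 13 of 35 promoter windows of 22 listed genes and in 9.42% of all windows, and in 4 of the 13 windows of genes that were lower. The windows of the transporter and of the melanin enzymes that were lower in G10 are shown in the same way, with the core in capitals. The matches begin 15 bases before the start in SLC24A5, 12 and 104 bases before it in TYR, and 11 and 144 bases before it in TYRP1.
SLC24A5 (chr15:48120740-48120989, + strand): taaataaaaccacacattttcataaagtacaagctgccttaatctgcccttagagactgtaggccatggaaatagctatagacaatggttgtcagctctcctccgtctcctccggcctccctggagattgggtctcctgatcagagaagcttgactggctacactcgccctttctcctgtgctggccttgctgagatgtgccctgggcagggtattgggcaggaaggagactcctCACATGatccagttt
TYR (chr11:89177625-89177874, + strand): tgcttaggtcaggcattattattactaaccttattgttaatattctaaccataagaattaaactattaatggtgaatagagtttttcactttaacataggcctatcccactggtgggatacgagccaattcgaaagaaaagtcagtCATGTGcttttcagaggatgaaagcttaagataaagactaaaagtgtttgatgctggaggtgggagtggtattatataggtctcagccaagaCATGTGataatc
TYRP1 (chr9:12693135-12693384, + strand): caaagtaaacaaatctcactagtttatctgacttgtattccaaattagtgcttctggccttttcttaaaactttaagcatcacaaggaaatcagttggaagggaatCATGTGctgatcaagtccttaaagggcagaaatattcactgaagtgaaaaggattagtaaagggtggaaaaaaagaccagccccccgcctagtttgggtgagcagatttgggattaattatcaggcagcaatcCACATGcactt

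SLC24A5, an ion exchanger of the melanosome, read 9.15, 9.19, 8.79 and 8.79 in A7 and 3.45, 3.53, 4.81 and 3.98 in G10, and was lower in G10 by at least 3.80 log2 units (measured difference -5.04, standard error 0.25, adjusted p = 1.28e-09). Control means were 8.51 in A375 cells and 8.03 in PCDNA3 cells, nearer to A7, and all G10 arrays lay below the olfactory receptor level. TYRP1, tyrosinase-related protein 1, read 8.47, 8.35, 8.001 and 8.03 in A7 and 7.44, 7.40, 7.51 and 7.41 in G10, and was lower in G10, with a difference of -0.77 (standard error 0.23, adjusted p = 0.0334). Both clones were above the control means of 5.22 in A375 cells and 6.50 in PCDNA3 cells. The call was lost without A7 replicate 1 or 2 or any 1 G10 array, at adjusted p of 0.0521 to 0.102. TYR, tyrosinase itself, read 7.66, 7.65, 6.78 and 6.68 in A7 and 4.64, 4.51, 7.13 and 5.92 in G10, a difference of -1.65 (standard error 0.53, adjusted p = 0.0486). Its groups overlapped, since G10 replicate 3 lay within the A7 range while replicates 1 and 2 lay below the olfactory receptor level, and its second cluster differed by -1.79 (adjusted p = 0.0143). Leaving out any 1 clone array other than G10 replicate 3 took the adjusted p of TYR to 0.0544 to 0.153.

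Other pigment genes of G10 split along the same pairs of arrays. MLANA, a melanosome antigen, read 9.65, 9.89, 9.38 and 9.20 in A7 and 7.96, 8.21, 9.78 and 9.57 in G10, a difference of -0.65 that did not pass the test (adjusted p = 0.353). PMEL, the amyloid of melanosome fibrils, read 8.94, 8.93, 8.67 and 8.60 in A7 and 9.16, 9.30, 10.82 and 11.34 in G10, a difference of 1.37 that did not pass either (adjusted p = 0.0927). Replicates 3 and 4 of G10 were the higher ones for both genes. Transport genes were lower without overlap of the arrays. MLPH, which links melanosomes to myosin, had means of 8.46 ± 0.32 in A7 and 7.12 ± 0.36 in G10 (SD, n = 4) and was lower in G10, with a difference of -1.34 (standard error 0.23, adjusted p = 0.000641). RAB38, which brings enzymes to the melanosome, was lower in G10, with a difference of -1.07 (standard error 0.21, adjusted p = 0.00187), and RAB27A, which tethers mature melanosomes, was lower in G10, with a difference of -0.89 (standard error 0.16, adjusted p = 0.00108). MYO5A, the motor of that complex, was lower in G10, with a difference of -0.53 (standard error 0.13, adjusted p = 0.00844). With replicates 3 and 4 alone MLPH, RAB27A and MYO5A did not pass the test, and MYO5A did not with replicates 1 and 2 alone either. SLC45A2, QPCT and GPR143 were also lower, each with a G10 mean below the olfactory receptor level, by at least 0.26, 0.33 and 0.31 log2 units. GPNMB, a melanosome glycoprotein, was at 12.63 in A7 and 12.61 in G10, and MC1R, the melanocortin receptor, differed by 0.12 (adjusted p = 0.601). With replicates 1 and 2 alone 10 genes of the list were lower and none higher, and with replicates 3 and 4 alone 5 were lower and 2 higher.

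Factors of the melanocyte and neural crest lineage and genes of the invasive melanoma state were more often higher in G10. Both lists hold genes that the study had reported from these arrays as upregulated in G10. Such genes are TFAP2A, RUNX1 and ALX1 in the first list and INHBA, DKK1, FLRT3 and NRCAM in the second. The shares of both lists are therefore no independent support. In the list of lineage factors 8 of 30 measured genes (26.7%) were higher and 2 (6.67%) lower in G10, against 10.4% and 10.3% of all genes, with a median difference of 0.07, and the counts were 9 higher and 2 lower with replicates 1 and 2 alone and 7 and 5 with replicates 3 and 4 alone. TFAP2A, a neural crest factor that acts with MITF, had means of 6.42 ± 0.28 in A7 and 8.46 ± 0.38 in G10 (SD, n = 4) and was higher in G10, with a difference of 2.04 (standard error 0.16, adjusted p = 3.25e-07). TFAP2B, its paralog, had means of 8.43 ± 0.08 in A7 and 6.89 ± 0.24 in G10 (SD, n = 4) and was lower in G10, with a difference of -1.54 (standard error 0.13, adjusted p = 8.91e-07), so the paralogs differed in opposite directions. RUNX1 was higher in G10, with a difference of 1.18 (standard error 0.12, adjusted p = 6.2e-06). In the list of the invasive and dedifferentiated state 9 of 27 measured genes (33.3%) were higher and 3 (11.1%) lower in G10, against 10.4% and 10.3% of all genes, with a median difference of 0.38. AXL, a receptor kinase of that state, read 6.10, 6.16, 6.24 and 5.84 in A7 and 7.99, 8.03, 8.35 and 8.54 in G10, and was higher in G10, with a difference of 2.15 (standard error 0.15, adjusted p = 5.12e-08). FLRT3, an adhesion protein of FGF signalling, had means of 7.11 ± 0.21 in A7 and 9.03 ± 0.04 in G10 (SD, n = 4) and was higher in G10, with a difference of 1.92 (standard error 0.12, adjusted p = 2.29e-08). No array of G10 overlapped with A7 for these genes, and for AXL and FLRT3 the control means were between the clones, at 6.64 in A375 cells and 6.85 in PCDNA3 cells for AXL.

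Many zinc finger genes of chromosome 19 were higher in G10, and few were lower. Of 247 measured genes 112 (45.3%) were higher and 3 (1.21%) lower, against 10.4% and 10.3% of all genes, with a median difference of 0.37. In 103 of the 247 every G10 array lay above every A7 array, against 11.3% of all genes. The other 1061 genes of the chromosome had 91 higher and 32 lower and a median of 0.02, and the 281 zinc finger genes of other chromosomes 67 higher and 17 lower and a median of 0.11. The longest run of neighbouring genes that all were higher in G10, with 22 genes, went from ZNF461 to ZNF573, with differences of 0.44 to 2.19. A run of 13 genes went from ZNF283 to ZNF233, with differences of 0.50 to 2.49. Most of these genes encode KRAB proteins, which repress repeated elements, and they share sequence, so their probes may read more than 1 gene. With replicates 1 and 2 alone 97 of the 247 genes were higher, and with replicates 3 and 4 alone 107.

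ZNF83 read 4.67, 4.58, 4.57 and 5.07 in A7 and 7.81, 7.97, 7.34 and 7.64 in G10, and was higher in G10 by at least 2.51 log2 units (measured difference 2.97, standard error 0.13, adjusted p = 4.93e-10). ZNF790, within the longest run, read 5.27, 5.37, 5.13 and 5.38 in A7 and 7.48, 7.50, 7.27 and 7.62 in G10, and was higher in G10, with a difference of 2.19 (standard error 0.10, adjusted p = 5.64e-10). Control means lay between the clones for both, at 6.43 in A375 cells and 6.18 in PCDNA3 cells for ZNF83. ZNF404, in the run of 13, was higher in G10 by at least 1.27 log2 units (measured difference 2.49, standard error 0.29, adjusted p = 1.77e-05), and ZNF558, outside both runs, was higher in G10 by at least 1.15 log2 units (measured difference 2.25, standard error 0.17, adjusted p = 2.09e-07). For ZNF558 the control means of 6.30 in A375 cells and 5.80 in PCDNA3 cells were close to G10. Within the longest run ZNF420 had means of 6.82 ± 0.22 in A7 and 8.32 ± 0.19 in G10 (SD, n = 4) and was higher in G10, with a difference of 1.51 (standard error 0.12, adjusted p = 5.19e-07), and ZNF875 was higher in G10, with a difference of 0.99 (standard error 0.14, adjusted p = 0.000131). Genes of that run that lay below the olfactory receptor level in both clones, such as ZNF781 and ZNF607, get no size here.

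**Figure D3:**
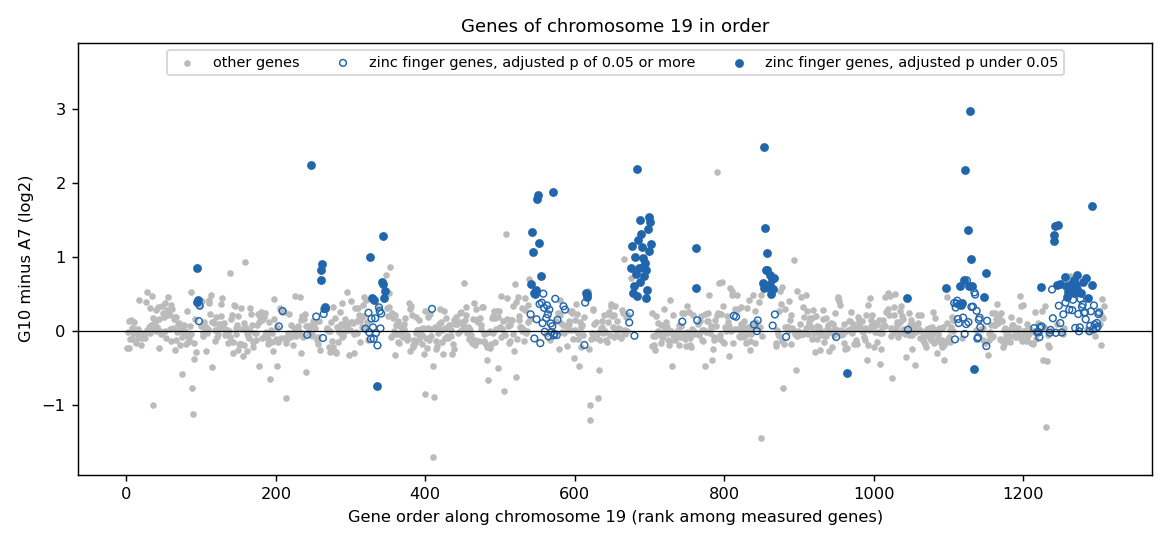
G10 minus A7 (log2) for the 1308 measured genes of chromosome 19 in their order along it, with zinc finger genes in blue, filled where the adjusted p was under 0.05, and other genes in grey. Filled points stand in columns above the grey band at several clusters of zinc finger genes, the one from ZNF461 to ZNF573 among them.

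Protocadherins, adhesion molecules of neural cells, were also more often higher than lower in G10. Of 42 measured protocadherins 24 were higher and 3 lower, against 10.4% and 10.3% of all genes, with a median of 0.45. The 11 that lie outside the clusters had 2 higher and 1 lower. All 12 alpha genes were higher, by 0.39 to 0.74, but their transcripts share constant exons that the probes may read, so the 12 are not separate measurements. Of 18 beta genes, which are single exons, 10 were higher and 1 lower. PCDHB3 read 5.40, 5.40, 5.45 and 5.15 in A7 and 7.55, 7.65, 6.81 and 6.66 in G10, and was higher in G10, with a difference of 1.82 (standard error 0.24, adjusted p = 7.66e-05). Its neighbour PCDHB4 read 5.68, 6.23, 5.896 and 5.51 in A7 and 3.88, 4.77, 3.67 and 3.66 in G10, and was lower in G10 by at least 0.65 log2 units (measured difference -1.83, standard error 0.25, adjusted p = 9.49e-05). These neighbours differed in opposite directions, without overlap of the arrays. A run of 15 neighbouring genes from PCDHA1 to PCDHB3 was higher and ended at PCDHB4. PCDHGB4, the 1 measured gamma gene, was lower in G10, with a difference of -1.34 (standard error 0.15, adjusted p = 1.12e-05). PCDH18, which lies outside the clusters, read 7.46, 7.74, 7.49 and 7.32 in A7 and 10.34, 10.33, 8.58 and 9.01 in G10, and was higher in G10, with a difference of 2.07 (standard error 0.30, adjusted p = 0.00015).

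HOX genes, which mark position along the body axis, were more often higher in G10. In this list 13 of 31 measured genes (41.9%) were higher and 1 (3.23%) lower in G10, against 10.4% and 10.3% of all genes, with a median difference of 0.25, and among 10 HOXB genes 6 were higher and none lower. The HOXB genes lie on chromosome 17, where 21.6% of genes were higher and 2.25% lower. The part of position in the HOXB count was not tested. HOXB13 read 6.37, 6.29, 6.68 and 6.33 in A7 and 8.16, 8.13, 7.12 and 7.39 in G10, and was higher in G10, with a difference of 1.28 (standard error 0.19, adjusted p = 0.00018). HOXD10 was higher in G10 by at least 0.91 log2 units (measured difference 1.05, standard error 0.14, adjusted p = 7.59e-05) and HOXD9 higher in G10, with a difference of 0.66 (standard error 0.10, adjusted p = 0.00031), but HOXD13, at the end of the same cluster, was lower in G10, with a difference of -1.01 (standard error 0.16, adjusted p = 0.000296). The number of HOX genes higher in G10 was 7 without A7 replicate 1, 8 without A7 replicate 3 or 4 or with the 8 clone arrays alone, and 9 in either pair of arrays alone.

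By chromosome the shares departed from those of all genes in blocks. On chromosome 11 only 1.62% of genes were higher and 25.6% lower, with a median of -0.14, and on chromosome 15 the shares were 2.60% and 20.8%. On chromosome 21 they were 28.0% and 2.97%, on chromosome 17 21.6% and 2.25%, and on chromosome 8 22.7% and 8.45%. In 444 windows of 40 neighbouring genes the lowest median was -0.62, from NPAT to DRD2 on chromosome 11, with 21 genes lower and 0 higher. The highest was 0.52, from ZNF461 to ACTN4 on chromosome 19, with 23 genes higher and 0 lower, and next came 0.46 from URB1 to SIM2 on chromosome 21, with 21 higher and 0 lower. There were 18 runs of at least 5 neighbouring genes in 1 direction, 11 of them higher and 7 lower in G10.

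The genes of the runs named next were chosen after their values were seen. A run of 8 genes lower in G10 went from SIK2 to DLAT on chromosome 11, within the window of lowest median. CRYAB, a small heat shock protein in that run, read 9.74, 9.70, 9.12 and 9.01 in A7 and 7.21, 7.40, 7.47 and 6.65 in G10, and was lower in G10, with a difference of -2.21 (standard error 0.20, adjusted p = 1.16e-06). DLAT, a subunit of pyruvate dehydrogenase, had means of 9.96 ± 0.07 in A7 and 8.47 ± 0.06 in G10 (SD, n = 4) and was lower in G10, with a difference of -1.48 (standard error 0.07, adjusted p = 1.08e-09). CDCA7L was in a run of 5 lower genes on chromosome 7. Of its neighbours SP4 was lower in G10, with a difference of -0.66 (standard error 0.12, adjusted p = 0.00122), RAPGEF5 lower in G10, with a difference of -1.37 (standard error 0.18, adjusted p = 7.01e-05) and STEAP1B lower in G10, with a difference of -1.31 (standard error 0.28, adjusted p = 0.00389). Another run, of 6 genes on chromosome 16, held metallothioneins, which bind zinc and copper. Of 13 measured metallothioneins 8 (61.5%) were lower and 0 higher, against 10.3% and 10.4% of all genes, with a median of -0.53. Since they are close in sequence, their probes may read each other.

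**Figure D4:**
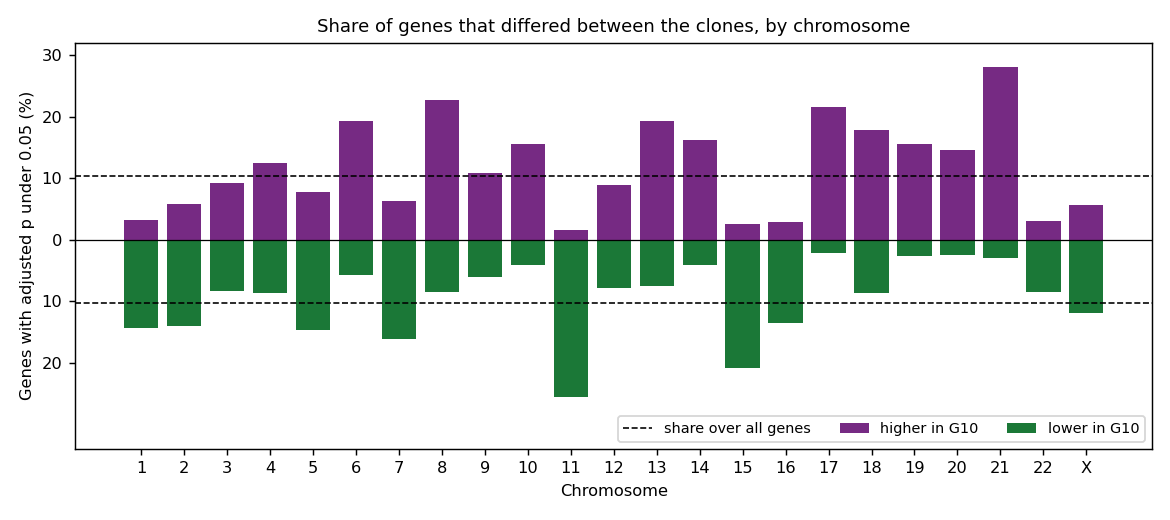
Percent of the measured genes of each chromosome that were higher (up) or lower (down) in G10 at an adjusted p under 0.05, with dashed lines at the shares over all genes, 10.4% and 10.3%. Chromosomes 11 and 15 stand out below the line and chromosomes 21, 8 and 17 above it.

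Cancer-testis antigens, germ cell proteins that many melanomas express, were lower in G10 more often than all genes were. In this list 3 of 39 measured genes (7.69%) were higher and 9 (23.1%) lower in G10, against 10.4% and 10.3% of all genes, with a median difference of -0.20. MAGEC2 read 10.78, 10.48, 10.66 and 10.62 in A7 and 5.28, 4.92, 5.08 and 5.24 in G10. MAGEB2 read 10.18, 10.23, 9.99 and 10.10 in A7 and 5.88, 6.45, 5.43 and 7.09 in G10, and was lower in G10, with a difference of -3.92 (standard error 0.26, adjusted p = 3.24e-08). G10 varied more than A7 for MAGEB2, without overlap. MAGEA10 was lower in G10, with a difference of -2.58 (standard error 0.13, adjusted p = 1.28e-09), and CT83 was higher in G10 by at least 0.81 log2 units (measured difference 1.75, standard error 0.21, adjusted p = 2.94e-05), opposite to the MAGE genes named here. MAGE genes share sequence, which leaves the values of single genes uncertain. Among histone genes 2 of 58 measured genes (3.45%) were higher and 8 (13.8%) lower in G10, against 10.4% and 10.3% of all genes, with a median difference of -0.04, and the counts were 2 higher and 13 lower with replicates 1 and 2 alone and 8 and 5 with replicates 3 and 4 alone. With array weights 17 histone genes were lower, and with the 8 clone arrays alone 5 were. H2BC12 had means of 9.71 ± 0.27 in A7 and 7.80 ± 0.21 in G10 (SD, n = 4) and was lower in G10, with a difference of -1.91 (standard error 0.18, adjusted p = 1.84e-06), and H4C6 was higher in G10 by at least 1.10 log2 units (measured difference 1.59, standard error 0.25, adjusted p = 0.000375). Histone messages mostly lack poly(A) tails and are close in sequence.

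Neural adhesion and guidance genes differed in both directions. Among neural adhesion molecules 4 of 28 measured genes were higher and 5 lower in G10, with a median difference of -0.04. NCAM2 read 6.53, 6.57, 6.64 and 6.15 in A7 and 9.23, 9.44, 8.17 and 7.91 in G10, and was higher in G10, with a difference of 2.21 (standard error 0.27, adjusted p = 3.69e-05). NCAM1 had means of 7.65 ± 0.20 in A7 and 6.38 ± 0.18 in G10 (SD, n = 4) and was lower in G10, with a difference of -1.27 (standard error 0.12, adjusted p = 1.76e-06), opposite to its paralog. CNTN1, contactin 1, read 7.44, 7.69, 7.29 and 6.71 in A7 and 7.60, 7.79, 5.23 and 5.49 in G10, a difference of -0.76 that did not pass the test (standard error 0.47, adjusted p = 0.358). Replicates 1 and 2 of G10 were at the A7 level and replicates 3 and 4 below it, and control means were 4.07 in A375 cells and 3.75 in PCDNA3 cells. In the list of ephrins, SLITs, netrins and their receptors 13 of 48 measured genes (27.1%) were higher and 6 (12.5%) lower in G10. The median difference of that list was 0.02. UNC5C, a netrin receptor, read 5.46, 5.48, 5.27 and 5.25 in A7 and 8.14, 8.43, 7.13 and 7.25 in G10. SLITRK6 read 5.68, 5.57, 5.41 and 5.37 in A7 and 8.08, 8.24, 8.80 and 8.35 in G10, whereas SLITRK1 of the same family read 7.20, 7.40, 7.02 and 7.09 in A7 and 5.19, 4.69, 5.19 and 4.98 in G10. The paralogs thus stood in opposite order without overlap. Among semaphorins, plexins and neuropilins 5 of 30 measured genes (16.7%) were higher and 5 (16.7%) lower in G10, with a median difference of 0.03. The counts were 8 higher and 5 lower with replicates 1 and 2 alone and 3 and 4 with replicates 3 and 4 alone. SEMA3C, a secreted guidance cue, had means of 7.75 ± 0.10 in A7 and 9.64 ± 0.48 in G10 (SD, n = 4) and was higher in G10, with a difference of 1.89 (standard error 0.22, adjusted p = 1.68e-05), and its receptor NRP1 was higher in G10, with a difference of 1.40 (standard error 0.22, adjusted p = 0.00032). SEMA6A was lower in G10, with a difference of -1.499 (standard error 0.16, adjusted p = 1.1e-05).

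Among genes of the neuronal cytoskeleton and secretion 5 of 30 measured genes (16.7%) were higher and 6 (20%) lower in G10. The shares of all genes were 10.4% and 10.3%, and the median difference of the list was -0.04. Its counts were 5 higher and 6 lower with replicates 1 and 2 alone and 2 and 6 with replicates 3 and 4 alone. UCHL1, a neuronal deubiquitinase, read 9.09, 8.74, 9.73 and 9.97 in A7 and 6.13, 6.25, 6.33 and 5.68 in G10, and was lower in G10, with a difference of -3.29 (standard error 0.23, adjusted p = 7.37e-08). TAC1, a tachykinin gene, had means of 8.30 ± 0.28 in A7 and 6.33 ± 0.72 in G10 (SD, n = 4) and was lower in G10, with a difference of -1.96 (standard error 0.29, adjusted p = 0.000219), but its control means of 9.69 in A375 cells and 9.96 in PCDNA3 cells were higher than both clones. KIF5C, a neuronal kinesin, was higher in G10, with a difference of 1.94 (standard error 0.14, adjusted p = 1.28e-07). Regulators of RAC and actin, which shape protrusions of moving cells, had more genes in both directions than all genes had, as 11 of 48 measured genes (22.9%) were higher and 15 (31.2%) lower in G10, against 10.4% and 10.3% of all genes, with a median difference of -0.13. This list holds MTSS1, TIAM1, RDX and CAPG, which the study had reported from these arrays as changed in G10, so its shares are no independent support. MTSS1, a membrane-bending actin regulator, read 7.31, 7.45, 7.10 and 7.03 in A7 and 5.26, 5.43, 5.69 and 5.20 in G10, and was lower in G10, with a difference of -1.83 (standard error 0.21, adjusted p = 1.52e-05). TIAM1, an activator of RAC, read 7.26, 7.42, 7.25 and 7.42 in A7 and 5.55, 5.36, 5.97 and 5.87 in G10, and was lower in G10, with a difference of -1.65 (standard error 0.12, adjusted p = 1.8e-07). All G10 arrays of both genes lay below all A7 arrays, and control means were 7.92 in A375 cells and 7.74 in PCDNA3 cells for TIAM1. CAPG, an actin-capping protein, had means of 7.50 ± 0.09 in A7 and 9.47 ± 0.26 in G10 (SD, n = 4) and was higher in G10, with a difference of 1.96 (standard error 0.12, adjusted p = 1.7e-08), with controls near G10 at 9.25 in A375 cells and 8.99 in PCDNA3 cells. RDX, which ties actin to the membrane, was lower in G10, with a difference of -1.54 (standard error 0.10, adjusted p = 3.3e-08) and lies on chromosome 11. Among cadherins and claudins 4 of 38 measured genes (10.5%) were higher and 2 (5.26%) lower in G10, with a median difference of -0.02. CDH19, a cadherin of neural crest cells, was higher in G10, with a difference of 0.92 (standard error 0.14, adjusted p = 0.000251).

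Matrix genes differed gene by gene. Over all genes 10.4% were higher and 10.3% lower. The shares were 22% and 17.1% among proteoglycans and glycoproteins and 10% and 20% among laminins and basement membrane genes. They were 6.98% and 14% among collagen chains, 8% and 12% among integrins, and 7.69% and 11.5% among proteases and inhibitors. Among matrix proteoglycans and glycoproteins 9 of 41 measured genes were higher and 7 lower in G10, with a median difference of -0.03, and the counts were 10 higher and 6 lower with replicates 1 and 2 alone and 4 and 9 with replicates 3 and 4 alone. The number higher was 3 with the 8 clone arrays alone and 5 without A7 replicate 2, G10 replicate 1 or G10 replicate 2. FN1, fibronectin, read 11.98, 12.09, 11.60 and 11.62 in A7 and 10.39, 10.34, 9.71 and 8.90 in G10, and was lower in G10, with a difference of -1.98 (standard error 0.27, adjusted p = 8.57e-05). SDC3, a membrane proteoglycan, had means of 9.68 ± 0.10 in A7 and 7.65 ± 0.40 in G10 (SD, n = 4) and was lower in G10, with a difference of -2.03 (standard error 0.19, adjusted p = 1.73e-06), and CSPG4, a melanoma surface antigen, was lower in G10, with a difference of -1.34 (standard error 0.13, adjusted p = 2.83e-06). Control means of FN1 were 12.27 in A375 cells and 11.97 in PCDNA3 cells, nearer to A7. Among laminins and basement membrane genes 2 of 20 measured genes were higher and 4 lower in G10, with a median difference of -0.03, and the counts were 4 higher and 5 lower with replicates 1 and 2 alone and 1 and 4 with replicates 3 and 4 alone. LAMA2, a laminin chain, read 7.05, 7.45, 6.89 and 6.80 in A7 and 4.52, 4.63, 4.50 and 4.69 in G10, and was lower in G10 by at least 1.87 log2 units (measured difference -2.46, standard error 0.12, adjusted p = 6.07e-10), with control means of 4.72 in A375 cells and 4.64 in PCDNA3 cells, below the olfactory receptor level as in G10. Among collagen chains 3 of 43 measured genes were higher and 6 lower in G10, with a median difference of 0.01, and the counts were 7 higher and 5 lower with replicates 1 and 2 alone and 1 and 7 with replicates 3 and 4 alone, and among integrins 2 of 25 measured genes were higher and 3 lower in G10, with a median difference of -0.05, and the counts were 3 higher and 4 lower with replicates 1 and 2 alone and 2 and 7 with replicates 3 and 4 alone. Without G10 replicate 1 there were 7 lower integrins. ITGA10, a collagen receptor chain, had means of 7.49 ± 0.25 in A7 and 5.36 ± 0.53 in G10 (SD, n = 4) and was lower in G10, with a difference of -2.13 (standard error 0.31, adjusted p = 0.000162), and ITGB8, which activates TGF-beta, was higher in G10, with a difference of 1.13 (standard error 0.16, adjusted p = 0.000139). Among proteases and their inhibitors 4 of 52 measured genes were higher and 6 lower in G10, with a median difference of -0.04, and the counts were 8 higher and 5 lower with replicates 1 and 2 alone and 2 and 5 with replicates 3 and 4 alone. CTSZ, a lysosomal cathepsin, had means of 5.96 ± 0.26 in A7 and 8.35 ± 0.13 in G10 (SD, n = 4) and was higher in G10, with a difference of 2.38 (standard error 0.12, adjusted p = 1.72e-09). 

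Enzymes that handle peroxide did not differ as 1 group. Among catalase, dismutases and peroxidases 4 of 26 measured genes (15.4%) were higher and 4 (15.4%) lower in G10, with a median difference of 0.12. The shares of all genes were 10.4% and 10.3%. GPX7, a peroxidase of the endoplasmic reticulum, read 9.33, 9.23, 9.24 and 9.31 in A7 and 8.11, 8.10, 7.89 and 7.96 in G10, and was lower in G10, with a difference of -1.26 (standard error 0.09, adjusted p = 9.52e-08). SRXN1, which repairs peroxiredoxins, was higher in G10, with a difference of 0.57 (standard error 0.14, adjusted p = 0.0108), and SOD3 was higher in G10, with a difference of 0.49 (standard error 0.12, adjusted p = 0.0123). Glutathione genes were more often lower, as 2 of 34 measured genes (5.88%) were higher and 10 (29.4%) lower in G10, against 10.4% and 10.3% of all genes, with a median difference of -0.18. EPHX2, an epoxide hydrolase that this list also holds, was lower in G10 by at least 0.71 log2 units (measured difference -1.91, standard error 0.18, adjusted p = 2.02e-06). MGST1, a membrane glutathione transferase, was lower in G10, with a difference of -1.23 (standard error 0.22, adjusted p = 0.00104). The study had reported EPHX2 and MGST1 from these arrays as downregulated in G10, so the share of this list is no independent support. GSTM1 was higher in G10, with a difference of 1.12 (standard error 0.18, adjusted p = 0.000327), and its probes may read other mu class genes. Among NRF2 targets and regulators 4 of 30 measured genes (13.3%) were higher and 4 (13.3%) lower in G10, with a median difference of 0.03. The counts were 8 higher and 5 lower with replicates 1 and 2 alone and 6 and 4 with replicates 3 and 4 alone. AKR1C2 was higher in G10, with a difference of 1.57 (standard error 0.23, adjusted p = 0.000161), and BACH1, a repressor of NRF2 targets that lies on chromosome 21, was higher in G10, with a difference of 0.82 (standard error 0.11, adjusted p = 9.92e-05). NOX4, an oxidase that makes hydrogen peroxide, read 7.33, 7.40, 6.85 and 6.59 in A7 and 5.17, 5.26, 4.56 and 4.50 in G10, and was lower in G10 by at least 1.85 log2 units (measured difference -2.17, standard error 0.32, adjusted p = 0.000213). CYBA, its partner subunit, had means of 6.24 ± 0.12 in A7 and 7.20 ± 0.25 in G10 (SD, n = 4) and was higher in G10, with a difference of 0.95 (standard error 0.11, adjusted p = 1.93e-05), so enzyme and partner stood in opposite order. Of the 13 measured genes of NADPH oxidases none of the others passed the test. Among peroxisomal genes 10 of 40 measured genes (25%) were higher and 4 (10%) lower in G10, with a median difference of -0.03. The counts were 10 higher and 4 lower with replicates 1 and 2 alone and 2 and 5 with replicates 3 and 4 alone. PEX2, a peroxisome import factor, was higher in G10, with a difference of 1.13 (standard error 0.15, adjusted p = 5.76e-05), and IDH1 was lower in G10, with a difference of -1.10 (standard error 0.13, adjusted p = 2.47e-05). 

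The number of DNA replication and mitosis genes lower in G10 differed between the pairs of arrays. Among DNA replication genes 9 of 49 (18.4%) were lower and 0 higher, against 10.3% and 10.4% of all genes, with a median of -0.27. With replicates 1 and 2 alone 31 were lower and with replicates 3 and 4 alone 1 was, while 6 were higher there. MCM6, a helicase subunit, read 10.59, 10.53, 10.42 and 10.41 in A7 and 9.35, 9.55, 10.13 and 10.11 in G10, and was lower in G10, with a difference of -0.70 (standard error 0.14, adjusted p = 0.00281). The count was 23 with array weights, 14 without G10 replicate 3 and 5 without G10 replicate 1 or 2 or with the 8 clone arrays alone. Among mitosis genes 5 of 42 (11.9%) were lower, a share near that of all genes, and 0 higher, and with replicates 1 and 2 alone 19 were, with replicates 3 and 4 alone 1, while 3 were higher there. With array weights 19 were lower, without G10 replicate 4 18, and with the 8 clone arrays alone 2. PLK1, a mitotic kinase, read 10.18, 10.23, 10.25 and 10.33 in A7 and 8.87, 8.94, 9.55 and 9.90 in G10, and was lower in G10, with a difference of -0.93 (standard error 0.19, adjusted p = 0.00314). For both genes the G10 values of replicates 1 and 2 lay below those of replicates 3 and 4, and with replicates 3 and 4 alone neither gene passed the test. Among p53 targets 8 of 32 measured genes (25%) were higher and 3 (9.38%) lower in G10, against 10.4% and 10.3% of all genes, with a median difference of 0.09. BTG1, which slows growth, had means of 9.46 ± 0.12 in A7 and 10.83 ± 0.54 in G10 (SD, n = 4) and was higher in G10, with a difference of 1.37 (standard error 0.19, adjusted p = 8.75e-05), and EDA2R, of the TNF receptor family, was higher in G10, with a difference of 1.12 (standard error 0.14, adjusted p = 4.5e-05). In the BCL2 family 1 of 20 measured genes were higher and 0 lower in G10, with a median difference of 0.06, and the counts were 3 higher and 0 lower with replicates 1 and 2 alone and 3 and 1 with replicates 3 and 4 alone, the 1 gene being BID, higher in G10, with a difference of 0.67 (standard error 0.17, adjusted p = 0.0131).

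Growth factor signalling held single large differences. Over all genes 10.4% were higher and 10.3% lower. Shares were 16.7% and 14.6% among receptor kinases and ligands, 19.6% and 8.7% in the activin list and 10.7% and 21.4% among MAPK outputs. Among receptor kinases and ligands 8 of 48 measured genes were higher and 7 lower in G10, with a median difference of -0.03, and the counts were 8 higher and 8 lower with replicates 1 and 2 alone and 8 and 11 with replicates 3 and 4 alone. The number higher was 5 without A7 replicate 1 or with the 8 clone arrays alone. MERTK, of the same family as AXL, read 7.23, 7.44, 6.52 and 6.48 in A7 and 5.15, 4.68, 4.69 and 4.40 in G10, and was lower in G10 by at least 1.74 log2 units (measured difference -2.19, standard error 0.21, adjusted p = 2.89e-06). AXL and MERTK thus stood in opposite order. KITLG, the ligand of KIT, read 7.28, 7.27, 6.93 and 7.10 in A7 and 4.69, 4.83, 6.24 and 6.06 in G10, and was lower in G10, with a difference of -1.69 (standard error 0.27, adjusted p = 0.000406). HBEGF, an EGF receptor ligand, was lower in G10, with a difference of -1.46 (standard error 0.14, adjusted p = 2.06e-06). In the activin, TGF-beta and BMP list 9 of 46 measured genes were higher and 4 lower in G10, with a median difference of -0.01, and the counts were 5 higher and 5 lower with replicates 1 and 2 alone and 8 and 3 with replicates 3 and 4 alone. TGIF1, a corepressor of SMADs, was higher in G10, with a difference of 1.25 (standard error 0.16, adjusted p = 3.91e-05), with the same direction in its other 4 clusters. Among MAPK pathway outputs 3 of 28 measured genes were higher and 6 lower in G10, with a median difference of -0.14. JUN was higher in G10, with a difference of 1.12 (standard error 0.19, adjusted p = 0.000736), and SPRY1, a feedback inhibitor, was lower in G10, with a difference of -1.05 (standard error 0.18, adjusted p = 0.000638). In the WNT list 2 of 55 measured genes (3.64%) were higher and 7 (12.7%) lower in G10, against 10.4% and 10.3% of all genes, with a median difference of 0.01. FZD7, a WNT receptor, was lower in G10, with a difference of -1.55 (standard error 0.13, adjusted p = 9e-07), and WNT5A was higher in G10, with a difference of 1.14 (standard error 0.34, adjusted p = 0.0314), with control means of 7.70 in A375 cells and 7.56 in PCDNA3 cells above both clones. The call of WNT5A was lost without A7 replicate 1, 2 or 3 or G10 replicate 2, 3 or 4, at adjusted p of 0.0516 to 0.0939.

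Among inflammatory cytokines and chemokines 5 of 42 measured genes (11.9%) were higher and 3 (7.14%) lower in G10, against 10.4% and 10.3% of all genes. The median difference was 0.04. The counts were 4 higher and 5 lower with replicates 1 and 2 alone and 6 and 3 with replicates 3 and 4 alone. Without A7 replicate 3 the number higher was 2. CXCL1, a chemokine for neutrophils, read 6.03, 5.49, 6.08 and 6.18 in A7 and 6.47, 6.38, 10.03 and 7.76 in G10, and was higher in G10, with a difference of 1.72 (standard error 0.55, adjusted p = 0.0447). All G10 arrays lay above A7, but the size rests on G10 replicate 3, without which the difference was 0.93 (adjusted p = 0.0308), and the adjusted p was 0.0684 to 0.112 without any 1 A7 array or without G10 replicate 4. RIPK2, an adaptor of bacterial sensing, was higher in G10, with a difference of 1.54 (standard error 0.12, adjusted p = 2.15e-07) and CCL2 lower in G10 by at least 1.20 log2 units (measured difference -1.51, standard error 0.28, adjusted p = 0.00131). Among hypoxia genes 0 of 31 measured genes (0%) were higher and 5 (16.1%) lower in G10, against 10.4% and 10.3% of all genes, with a median difference of 0.01, and the counts were 6 higher and 3 lower with replicates 1 and 2 alone and 0 and 4 with replicates 3 and 4 alone. Without G10 replicate 4 there were 3 higher hypoxia genes and with array weights 4. CA12, a carbonic anhydrase, read 7.94, 7.94, 7.88 and 7.96 in A7 and 5.21, 5.05, 5.29 and 5.65 in G10, and was lower in G10, with a difference of -2.63 (standard error 0.12, adjusted p = 5.64e-10). Among cholesterol synthesis genes 0 of 19 measured genes were higher and 3 (15.8%) lower in G10, with a median difference of -0.22. SC5D was lower in G10, with a difference of -0.94 (standard error 0.13, adjusted p = 0.000126). Among genes of PPAR and fatty acid use 2 of 34 measured genes (5.88%) were higher and 7 (20.6%) lower in G10, against 10.4% and 10.3% of all genes, with a median difference of -0.06, and the counts were 5 higher and 7 lower with replicates 1 and 2 alone and 1 and 5 with replicates 3 and 4 alone. RXRG, a retinoid receptor, had means of 11.14 ± 0.20 in A7 and 9.54 ± 0.69 in G10 (SD, n = 4) and was lower in G10, with a difference of -1.61 (standard error 0.24, adjusted p = 0.000198), and ACSL1, which activates fatty acids, was lower in G10, with a difference of -1.11 (standard error 0.11, adjusted p = 3.02e-06). Among 127 ion channel genes 5 were higher and 10 lower, shares of 3.94% and 7.87% against 10.4% and 10.3% of all genes. With replicates 1 and 2 alone 13 channels were lower, and with replicates 3 and 4 alone 18. SCN9A, a sodium channel, was lower in G10 by at least 1.61 log2 units (measured difference -1.83, standard error 0.17, adjusted p = 2.09e-06), and NALCN, a sodium leak channel, was higher in G10 by at least 0.29 log2 units (measured difference 1.33, standard error 0.15, adjusted p = 2.12e-05).

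**Figure D5:**
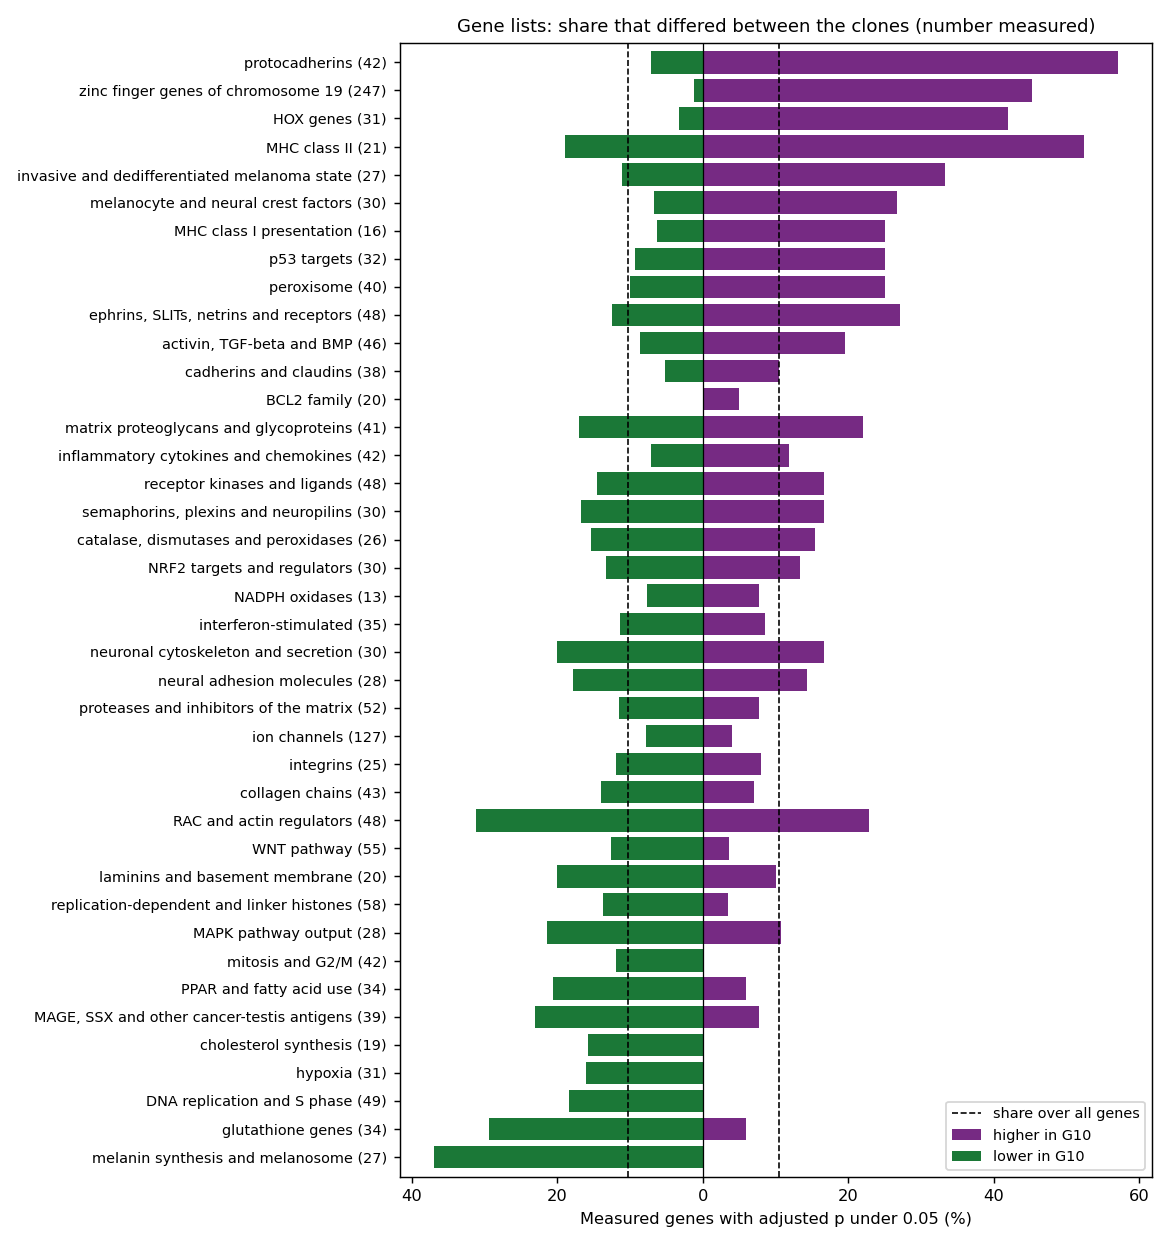
Percent of the measured genes of each list (number in brackets) that were higher or lower in G10 at an adjusted p under 0.05, with dashed lines at the shares over all genes. Protocadherins, zinc finger genes of chromosome 19, HOX genes and class II genes stand to the right and melanin and glutathione genes to the left.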

How the data were processed

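RNA of 16 samples was read on Affymetrix Human Gene 1.0 ST arrays, 4 per group. The authors deposited log2 intensities that they had background-corrected, quantile-normalized and summarized with RMA. Quantile normalization in RMA forces the probe values of all arrays to 1 distribution, so a shift of most genes together cannot be seen. Array medians over the summarized clusters still ran from 5.88 to 5.96 in A7 and from 5.85 to 5.92 in G10. RMA shrinks low signals, which makes differences of weak genes too small. Array data have no read depth, and the number of arrays limits the precision. The members and the gene lists were chosen with earlier results of these data known. A list share above that of all genes is therefore not independent of those results.

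All 16 arrays were fitted with a mean per group in limma 3.58.1 (R 4.3.3), G10 minus A7 was taken as a contrast, and p values were moderated with eBayes and adjusted by Benjamini-Hochberg over 33297 clusters. A gene was the cluster of highest mean among those with 1 symbol. The platform annotation gave 19460 clusters 1 symbol, 1754 several and 12083 none, and 19429 symbols were brought up to RefSeq through their gene IDs. Named are CAT, TYRP1, CNTN1, UCHL1, MTSS1 and TIAM1, the 15 largest measured differences in each direction past the stricter limits, up to 4 genes per list, class II and melanin genes, and genes of the 3 longest runs. Genes of shorter runs (CRYAB, DLAT, SP4, RAPGEF5 and STEAP1B) and the markers CD68 and LYZ were chosen for the text with their values in view. The list of metallothioneins was added after the values were seen. The fit was tested on simulated data. Alternatives in weights, centring, normalization, variance model, arrays and limits were run, and the restriction to 1 pair of arrays was chosen after seeing the data. The result of 1 gene list is not reported here.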

Additional observations from a re-analysis of the deposited data

Results flagged for a closer look

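In 13 of 320 groups of 4 arrays (4.06%), each a gene named here in 1 clone, the highest or lowest array stood apart from the other 3 by Dixon's test, and chance gives about 1 in 20. The values are RMA log2 intensities. BACH1 read 8.66 on G10 replicate 3, the highest of its group, and 8.17 on the nearest array. CDH19 read 8.23 on A7 replicate 1, the highest of its group, and 7.86 on the nearest array. CT83 read 5.31 on G10 replicate 3, the lowest of its group, and 6.12 on the nearest array. GPR143 read 4.40 on G10 replicate 4, the lowest of its group, and 4.79 on the nearest array. HLA-DOA read 8.22 on G10 replicate 3, the highest of its group, and 7.60 on the nearest array. HOXD10 read 5.86 on G10 replicate 3, the lowest of its group, and 6.21 on the nearest array. MYO5A read 9.14 on G10 replicate 4, the lowest of its group, and 9.48 on the nearest array. NRP1 read 8.57 on G10 replicate 3, the highest of its group, and 7.90 on the nearest array. PASD1 read 3.55 on G10 replicate 4, the lowest of its group, and 3.79 on the nearest array. PCDHB3 read 5.15 on A7 replicate 4, the lowest of its group, and 5.40 on the nearest array. PCDHGB4 read 6.99 on G10 replicate 4, the lowest of its group, and 7.61 on the nearest array. RNF17 read 2.61 on A7 replicate 4, the highest of its group, and 2.47 on the nearest array. RNF17 read 6.57 on G10 replicate 2, the highest of its group, and 6.06 on the nearest array.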

How the results depend on the processing

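Of 150 named genes called at an adjusted p under 0.05, all kept their direction in every alternative run, and 129 stayed called in every one. Replicates 1 and 2 of the clones alone lost 7 calls, replicates 3 and 4 alone 14, the 8 clone arrays alone 7, and the omission of any 1 clone array 6. CAT lost its call with replicates 1 and 2 alone, at -0.44, and ranged from -0.85 to -0.58 when 1 array was left out. Clusters past the stricter limits numbered 50 higher and 86 lower. The lower ones numbered 55 with replicates 3 and 4 alone, 103 with replicates 1 and 2 alone and 51 with the 8 clone arrays alone, and the cause was not tested. A limit of 1 log2 unit gave 175 higher and 309 lower, and limma's treat gave 32 and 51. Leaving out 1 array gave 45 to 57 higher and 68 to 87 lower. At an adjusted p under 0.05 there were 2607 higher and 2458 lower clusters, 2062 to 2547 and 1876 to 2546 without 1 array, 4299 and 4233 at an unadjusted p under 0.05, and 727 and 815 at an adjusted p under 0.001. Centring each array on its median gave 2920 and 1963.

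Replicate numbers did not pair the clones, since deviations of same-numbered arrays correlated at -0.161 to 0.067. The replicate block gave 49 and 81 clusters past the stricter limits and 2482 and 2355 at an adjusted p under 0.05, and 1 named gene lost its call.

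Genes without a call changed sign in some fits, and the cause was not tested. With replicates 1 and 2 alone CNTN1 was 0.13 and GPNMB 0.011. With replicates 3 and 4 alone MC1R was -0.028, MLANA 0.39, RFX5 -0.0019 and RFXANK -0.18. GPNMB was 0.086 with array weights and 0.027 with centring on the median. When 1 array was left out GPNMB ranged from -0.066 to 0.046 and HLA-DQB1 from -0.28 to 0.077.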
